A study of Mus musculus with 8 samples.

Results

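The genes described here belong to the integrated stress response and the unfolded protein response, 40 genes chosen by name in 2 arms. The Atf4 arm holds 27 genes, namely Atf4, its partners and targets, and genes of amino acid synthesis and transport. The endoplasmic reticulum arm holds 13 genes, mostly chaperones and disulfide isomerases of that compartment. Of the 40, 38 had a probe set that names 1 gene, among 18140 such genes on the array, and 37 (24 and 13 by arm) passed the filter on low values together with 12394 genes in all. Psph and Pycr1 had no such probe set. The cystine transporter gene Slc7a11 did not pass the filter, and its intensity lay between 2.04 and 42.2 on the 8 arrays, below every array's median.

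RNA came from V6.5 mouse embryonic stem cells that received a lentiviral short hairpin RNA, were kept in 4 µg/ml puromycin for 4 days and were lysed on day 5. There were 4 groups of 2 arrays. Hairpins 3 and 4 against Ncaph2 (condensin II) gave the CapH2 knockdown, and hairpins 1 and 2 against Smc2 (a subunit shared by condensin I and II) gave the Smc2 knockdown, each hairpin on its own array. The knockdown of Smc1 (Smc1a, a cohesin subunit) and the control, a hairpin against GFP, each had 2 biological replicates of 1 hairpin. All groups, the control included, thus carried virus, a hairpin and puromycin selection, and a group of untreated cells was not analysed here. Effects of the Smc1 or the GFP hairpin on other genes cannot be told apart from those of its target.

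As background, kinases that sense amino acid shortage, misfolded protein, viral RNA or lack of heme phosphorylate the translation factor eIF2. Most translation then slows, while the mRNA of the transcription factor Atf4 is translated more, and Atf4 switches on genes for amino acid supply, redox balance and, with Ddit3 (CHOP), cell death. The unfolded protein response adds the sensor Ire1, which splices Xbp1 mRNA, and the factor Atf6, and both raise the folding capacity of the endoplasmic reticulum. Because Atf4 and Xbp1 are controlled in large part after transcription, the level of their mRNA on an array is not a measure of their activity.

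The targeted genes were lower in their own group, by log2 changes of -2.96 for Ncaph2 (limma adjusted p = 0.00115), -1.64 for Smc2 (0.0154) and -2.95 for Smc1a (7.81e-05). Array medians lay between 62.5 and 74.5 intensity units. All 10 stem cell markers lay above the array median on all 8 arrays, with a summed intensity of 85930 and 101193 on the Smc1 arrays and 115626 to 132948 on the others. In the Smc1 knockdown 6 of these 10 were called lower and 1 higher against GFP, beside 4.69% and 9.3% of all genes. Of 15 fibroblast markers, 5 lay above the array median on each GFP array and 7 to 11 elsewhere. Their summed intensity was 1062 and 1237 for GFP, 1750.2 and 2174 for Smc1, and 1276 to 1833 for the condensin knockdowns. Of the 11 tested, 3 were called higher (27.3%) and 0 lower in Smc1 against GFP, and 0 in either condensin knockdown. A gene was tested if it lay above the array median on any 2 arrays. A marker could thus enter through knockdown arrays alone, and the direction of these counts may partly follow from that. The ratio of 3' to 5' Actb probe sets reflects RNA integrity and labelling. It was 1.70 and 1.84 for Smc1, 2.04 and 2.18 for GFP, and 1.67 to 2.18 for the condensin knockdowns. The part of the stem cell markers and the fibroblast markers in the results below was not tested, and counts and medians with the Actb ratio as a term in the fit are given where that term moved them. In these bulk samples, fewer cells of a type and less RNA per cell cannot be told apart.

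In the Smc1 knockdown a set of Atf4 arm genes was lower than in the control. Against GFP, 7 of the 24 tested genes of this arm fell and 1 rose in the Smc1 knockdown (limma, Benjamini-Hochberg adjusted p below 0.05, here "called"), while 4.69% of all genes tested were called lower and 9.3% higher, 14% in all. The genes that fell were Nupr1, Ddit3, Eif4ebp1, Psat1, Gpt2, Asns and Slc3a2, and the gene that rose was Atf3. In the endoplasmic reticulum arm 0 of 13 genes were called by limma, with 4 at an unadjusted p below 0.05 (31.2% of all genes) and a smallest adjusted p of 0.0873 (Pdia4). In the CapH2 and the Smc2 knockdowns 0 of the 37 genes were called against GFP, with 6 at an unadjusted p below 0.05 in each, and 0.0161% of all genes were called in each comparison (12.6% at an unadjusted p below 0.05 in each). The 3 comparisons against GFP share the same 2 control arrays, so they are not independent of one another.

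**Figure D1:**
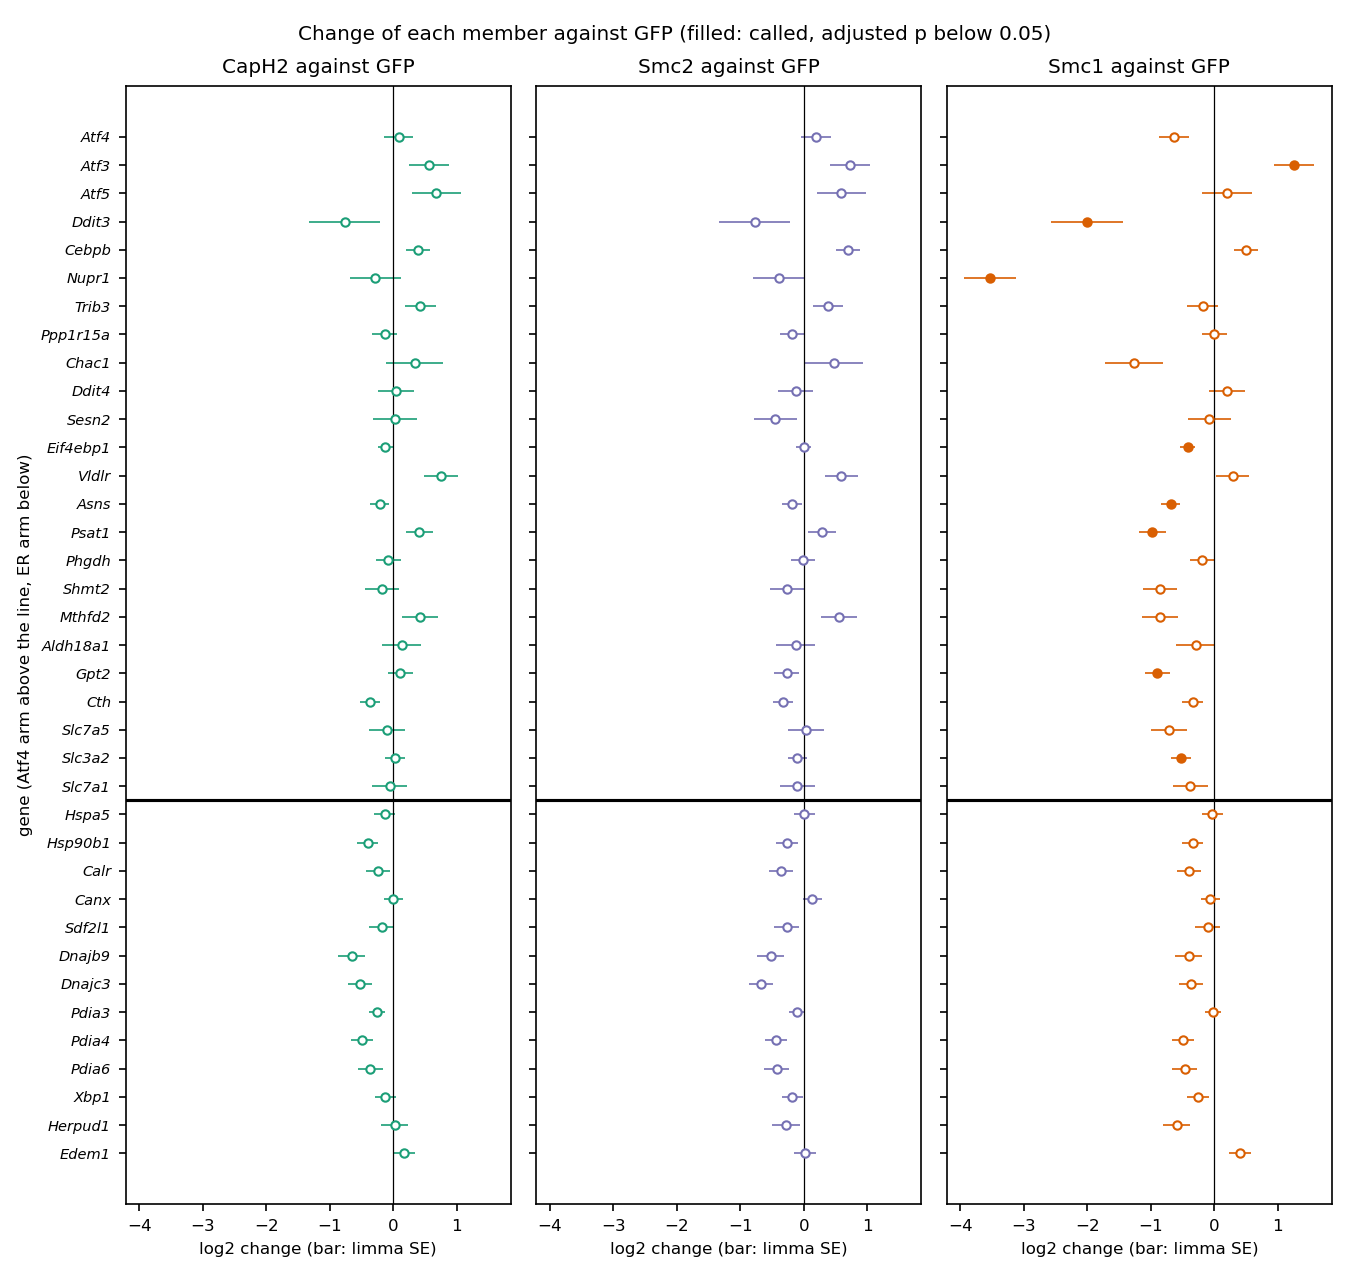
The log2 change of each of the 37 tested genes against GFP (x axis) in the CapH2, Smc2 and Smc1 knockdowns, with limma standard errors as bars and filled points for called genes. Filled points appear in the Smc1 panel for 8 genes of the Atf4 arm, from Nupr1 at -3.53 to Atf3 at 1.26, and in neither condensin panel.

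Among the regulators of the response, Nupr1, a stress-induced chromatin-binding protein and Atf4 target, changed most. Its intensity was 2595 and 1122 on the GFP arrays, 965 (hairpin 3) and 2038 (hairpin 4) with CapH2 knockdown, 1153 (hairpin 1) and 1451 (hairpin 2) with Smc2 knockdown, and 140.4 and 126 with Smc1 knockdown. Both Smc1 arrays lay far below the other 6, which overlapped one another. The Smc1 level was 7.18% of the GFP mean, a log2 change of -3.53 (SE 0.406, n = 2 per group, limma adjusted p = 0.00235). A second probe set of the gene gave -3.29. Nupr1 was called under each of the 21 alternatives run, with changes from -4.13 to -2.77 and adjusted p-values up to 0.0366.

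Ddit3, which encodes the pro-apoptotic partner CHOP, read 1749 and 689 on the GFP arrays and 281 and 245 on the Smc1 arrays. On the condensin arrays it read 394 and 1037 (CapH2 hairpins 3 and 4) and 384 and 1047 (Smc2 hairpins 1 and 2). The Smc1 arrays were the lowest of the 8, and in both condensin knockdowns 1 hairpin lay above and 1 below the lower GFP array. The fall in the Smc1 knockdown was -2.002 (SE 0.561, limma adjusted p = 0.0421), and the changes in the CapH2 and Smc2 knockdowns were -0.76 and -0.78 (adjusted p = 0.578 and 0.575). The call ended when any 1 of the Smc1 or GFP arrays was left out, with adjusted p-values of 0.0566 (without GFP replicate 2), 0.134 (without Smc1 replicate 2), 0.174 (without Smc1 replicate 1) and 0.293 (without GFP replicate 1, change -1.34). With the Actb ratio as a term the change was -0.63 (adjusted p = 0.398).

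Atf3, a stress-induced factor of the same bZIP family, went the other way. It read 118 and 119.6 on the GFP arrays, 233 and 142 with CapH2 knockdown, 216 and 197 with Smc2 knockdown and 403 and 233 with Smc1 knockdown. All 6 knockdown arrays lay above both GFP arrays, and 1 Smc1 array lay level with the higher CapH2 array. Its rise in the Smc1 knockdown was 1.26 (SE 0.316, limma adjusted p = 0.0278), beside 0.56 and 0.72 in the CapH2 and Smc2 knockdowns (adjusted p = 0.476 and 0.390). The adjusted p was 0.226 without Smc1 replicate 1, and 0.151 or 0.110 when the first or the second GFP array was left out, and with the Actb ratio as a term it was 0.232.

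Atf4 itself read 5713 and 3979 on the GFP arrays, 6275 and 4067 with CapH2 knockdown, 5781 and 5139 with Smc2 knockdown and 3360 and 2782 with Smc1 knockdown. The Smc1 arrays were the lowest of the 8, and the change against GFP was -0.64 (SE 0.235, limma adjusted p = 0.0969), which did not pass the test. Another bright probe set gave -0.68. Chac1, a glutathione-degrading enzyme and a sensitive Atf4 target, read 350.5 and 307 on the GFP arrays and 123 and 132 on the Smc1 arrays. On the condensin arrays it read 670.3 and 258 (CapH2 hairpins 3 and 4) and 719 and 294 (Smc2 hairpins 1 and 2), so that 1 hairpin of each lay above both GFP arrays and the other below both. Its Smc1 change of -1.26 (SE 0.455) had an adjusted p of 0.0918.

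The translation inhibitor gene Eif4ebp1, which Atf4 also induces, had the smallest change among the called genes. It read 18994 and 18181 on the GFP arrays, 17277 and 16873 with CapH2 knockdown, 20620 and 16727 with Smc2 knockdown and 14004 and 13757 with Smc1 knockdown, a change of -0.42 (SE 0.120, limma adjusted p = 0.0448). The Smc1 arrays were the lowest. Of its other probe sets, a bright one gave -0.44 and a dim one 0.26. The Eif4ebp1 call ended when any 1 of the CapH2, Smc1 or GFP arrays was left out, with adjusted p-values from 0.0657 to 0.203, and with the Actb ratio as a term (0.0529). It was lost under 12 of 21 alternatives in all, which include quantile normalization, median centring, no filter, the mean of all probe sets and no intensity trend.

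Of the other regulators, Cebpb, Vldlr and Atf5 had the largest changes, none of which passed the test. Cebpb, a bZIP factor that dimerises with Ddit3, read 589 and 613 on the GFP arrays, 868 and 725 on CapH2, 949 and 1012 on Smc2 and 792 and 930.0 on Smc1. Every knockdown array lay above both GFP arrays, and the changes were 0.39, 0.69 and 0.50 in that order (limma adjusted p = 0.419, 0.232 and 0.103). Vldlr, a lipoprotein receptor gene induced through Atf4, read 203 and 196 on GFP, 265 and 452 on CapH2, 313 and 304 on Smc2 and 251 and 243 on Smc1, again above GFP on all 6 arrays. Its changes were 0.75, 0.59 and 0.29 (adjusted p = 0.322, 0.395 and 0.489).

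Atf5, a factor translated in the manner of Atf4, read 233 and 198 on GFP, 527 (hairpin 3) and 234 (hairpin 4) on CapH2, 462 (hairpin 1) and 235 (hairpin 2) on Smc2 and 234 and 264 on Smc1. All 6 knockdown arrays lay above both GFP arrays, and the changes were 0.68, 0.59 and 0.20 (limma adjusted p = 0.483, 0.532 and 0.768). The other 4 regulators were not called in any comparison. They were the Atf4 inhibitor Trib3 (Smc1 change -0.18), the mTORC1 inhibitors Ddit4 (0.20) and Sesn2 (-0.08), and Ppp1r15a (-0.00), which directs the phosphatase that reverses eIF2 phosphorylation and so ends the response. Their 95% intervals were -0.72 to 0.36, -0.42 to 0.82, -0.84 to 0.68 and -0.44 to 0.44. Dimmer second probe sets, which were not tested, gave Smc1 changes of -0.52 for Trib3 and 0.55 for Sesn2, the latter of opposite sign. Over all 13 regulators the median Smc1 change was -0.08, with 8 below 0, against a median of 0.03 over all genes.

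**Figure D2:**
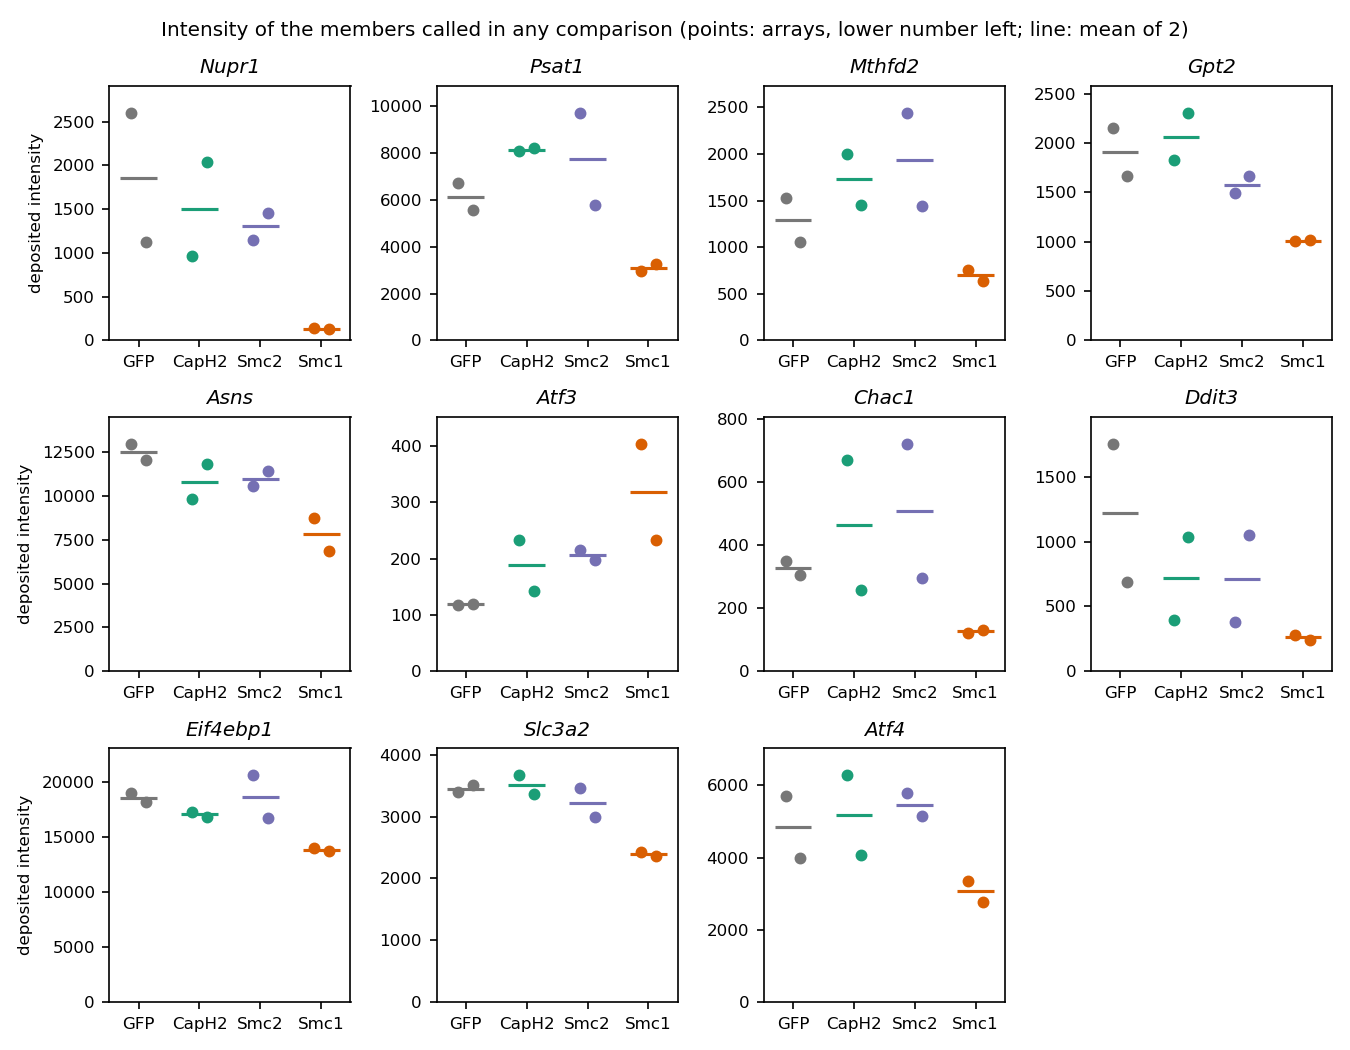
Deposited intensity (y axis, linear, from 0) on each array for the 11 genes called in any comparison, with 1 point per array and a line at the mean of 2 arrays. In 10 of the 11 panels both Smc1 points lie below all other points, as for Nupr1 at 140.4 and 126, and in the Atf3 panel they lie at 403 and 233, above both GFP points.

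All 8 tested genes of amino acid synthesis were below the GFP mean on both Smc1 arrays, with both Smc1 arrays below both GFP arrays for all 8, a separation that 28.4% of all genes showed in that direction. Their median Smc1 change was -0.77, beside 0.02 in the CapH2 and -0.16 in the Smc2 knockdown. Of the 8, 3 fell by the test (Psat1, Gpt2 and Asns) and 5 did not pass it.

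Psat1, which makes the serine precursor phosphoserine, read 6714 and 5563 on GFP, 8064 and 8218 on CapH2, 9691 and 5773 on Smc2 and 2958 and 3257 on Smc1. The Smc1 arrays lay below all other arrays, and both CapH2 arrays lay above both GFP arrays. The Smc1 change was -0.97 (SE 0.219, limma adjusted p = 0.0186), and a second probe set gave -0.87. Leaving out Smc1 replicate 1 or 2 gave an adjusted p of 0.142 or 0.0565, and leaving out GFP replicate 1 or 2 gave 0.151 or 0.0601.

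Gpt2, the mitochondrial alanine aminotransferase, read 2152 and 1668 on GFP, 1824 and 2301 on CapH2, 1489 and 1661 on Smc2 and 1003 and 1019 on Smc1. The Smc1 arrays again lay below the other 6, and the change was -0.90 (SE 0.196, limma adjusted p = 0.0168). Its 3 other probe sets gave -0.69, -0.69 and -0.55. The adjusted p of Gpt2 was 0.118 and 0.0618 without Smc1 replicates 1 and 2, 0.154 without GFP replicate 1, and 0.114 with the Actb ratio as a term.

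Asns, the asparagine synthetase gene and a classical Atf4 target, read 12931 and 12031 on GFP, 9805 and 11802 on CapH2, 10547 and 11393 on Smc2 and 8751 and 6842 on Smc1. The 4 condensin arrays lay below GFP and above Smc1. The Smc1 change was -0.69 (SE 0.152, limma adjusted p = 0.0174), with -0.75 on a second probe set. Its adjusted p was 0.0569 and 0.101 without Smc1 replicates 1 and 2, 0.122 and 0.0635 without GFP replicates 1 and 2, and 0.111 with the Actb ratio as a term.

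The mitochondrial folate genes did not pass the test against GFP. Mthfd2 read 1527 and 1054 on GFP, 1997 and 1457 on CapH2, 2436 and 1439.8 on Smc2 and 759 and 634 on Smc1, a change of -0.86 (SE 0.286, limma adjusted p = 0.0735). Shmt2, which feeds the same pathway from serine, read 2023 and 2787 on GFP, 1937 and 2278 on CapH2, 2163 and 1818 on Smc2 and 994 and 1722 on Smc1, a change of -0.85 (SE 0.265, adjusted p = 0.0591). For both genes the Smc1 arrays were the lowest, and the condensin arrays overlapped GFP. Probe sets that were not tested gave Smc1 changes of -1.25 for Mthfd2, and of -0.69, -0.36 and -0.22 for Shmt2. Against GFP, Mthfd2 was called with the mean of all probe sets and Shmt2 with median centring. Neither was called with quantile normalization, no filter or no intensity trend. The remaining 3 genes were Phgdh, the first enzyme of serine synthesis (Smc1 change -0.20), the proline pathway gene Aldh18a1 (-0.29) and the cysteine-producing gene Cth (-0.34). Cth was lower than GFP on all 6 knockdown arrays, with changes of -0.37, -0.33 and -0.34 in the CapH2, Smc2 and Smc1 knockdowns, and was not called in any.

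Amino acid transporters had 3 tested genes, with a median Smc1 change of -0.52. All 3 had both Smc1 arrays below both GFP arrays, as did 28.4% of all genes. Slc3a2, the heavy chain shared by several transporters, read 3393 and 3503 on GFP, 3666 and 3365 on CapH2, 3464 and 2989 on Smc2 and 2421 and 2365 on Smc1. The Smc1 arrays were the lowest of the 8, and the gene fell by 0.52 on the log2 scale (SE 0.151, limma adjusted p = 0.0462). The Slc3a2 call ended when any 1 of the CapH2, Smc1 or GFP arrays was left out, with adjusted p-values from 0.0612 to 0.196. Slc7a5, the light chain that carries leucine with it, read 2869 and 3916 on GFP, 3952 and 2470 on CapH2, 4300 and 2760 on Smc2 and 1814 and 2300 on Smc1. The Smc1 arrays were again the lowest, and its change of -0.71 (SE 0.281) had an adjusted p of 0.118. The arginine transporter gene Slc7a1 changed by -0.38 (adjusted p = 0.388).

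Over the Atf4 arm, 19 of 24 genes had an Smc1 change below 0, where 47.7% of all genes did. For 17 of 24 both Smc1 arrays lay below both GFP arrays, as for 28.4% of all genes. The arm's median was -0.40, against 0.03 over all genes. Without Smc1 replicate 1, or without GFP replicate 1, 1 gene of the arm was called (Nupr1). Without Smc1 replicate 2 the count was 3, and without GFP replicate 2 it was 2. With no filter on low values 4 genes were called (Atf3, Ddit3, Eif4ebp1 and Slc3a2 were lost), and with no intensity trend 3 were (Atf3, Gpt2 and Nupr1). With median centring the Eif4ebp1 and Slc3a2 calls were lost. The median of the arm lay between -0.46 and -0.38 whichever of the 8 arrays was left out. With the Actb ratio as a term it was -0.63, and 7 genes were called, of which 3 (Nupr1, Psat1 and Slc3a2) were among the 8.

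**Figure D3:**
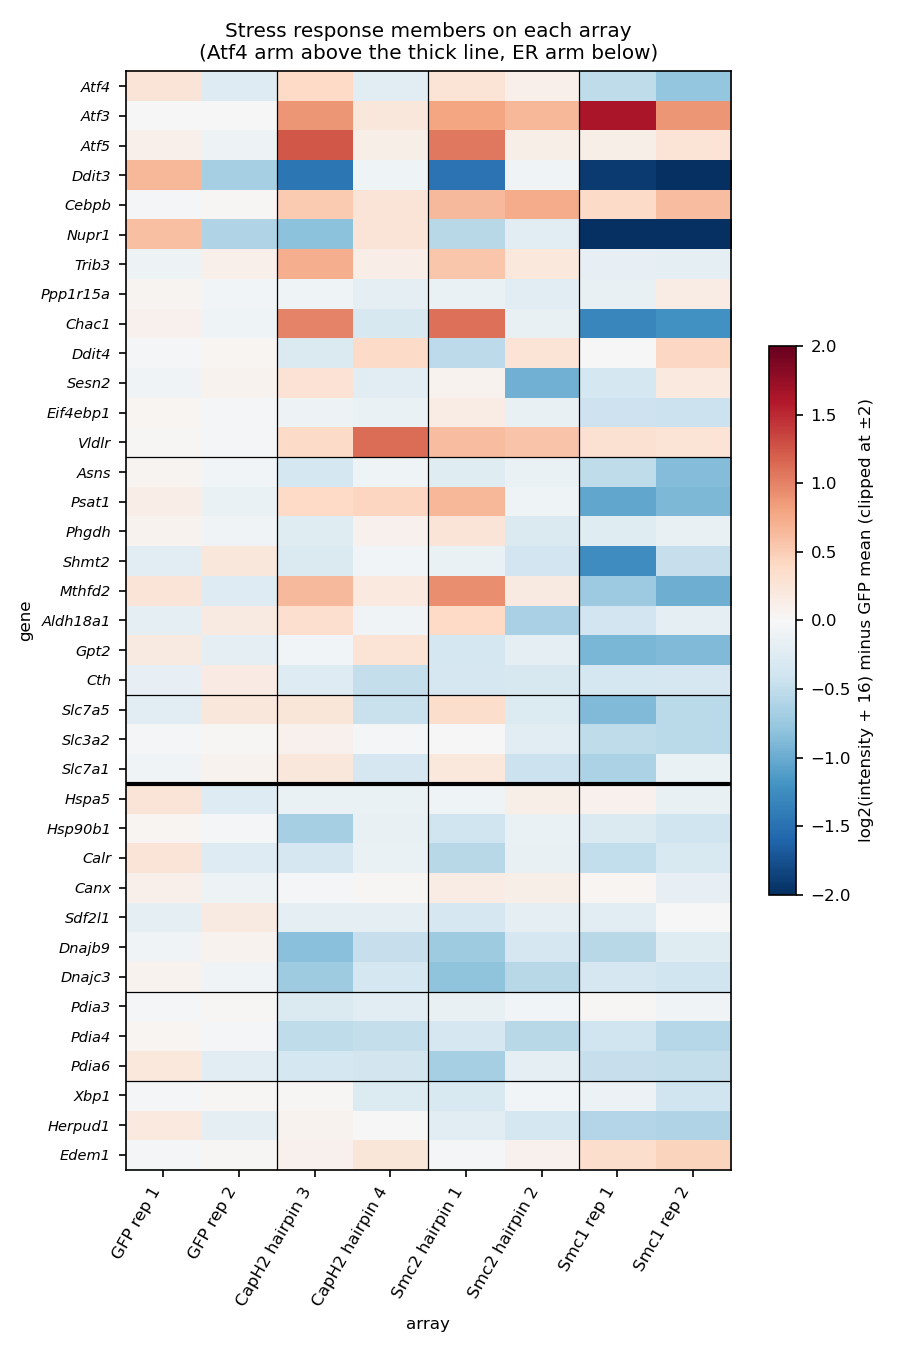
Log2 intensity of each of the 37 tested genes on each array minus the GFP mean, with columns for the 8 arrays and rows grouped by role, the Atf4 arm above and the endoplasmic reticulum arm below the thick line. Colours are clipped at a difference of 2. The Smc1 columns are dark blue for Nupr1 and Ddit3. They are blue for all 8 amino acid synthesis genes, but only faintly for some, such as Phgdh (-0.24 and -0.15). The rows of the endoplasmic reticulum arm are paler than Nupr1 and Ddit3 in the Smc1 columns, but not pale throughout. Their lowest values are -0.84 (Dnajb9, first CapH2 array) and -0.81 (Dnajc3, first Smc2 array).

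In the endoplasmic reticulum arm most genes lay somewhat below the control in each knockdown, and none passed the test. The median was -0.24 in CapH2, -0.27 in Smc2 and -0.34 in Smc1, with 10, 10 and 12 of the 13 genes below 0, against medians of 0.01, -0.01 and 0.03 and shares of 48.7%, 50.5% and 47.7% below 0 over all genes. Both knockdown arrays lay below both GFP arrays for 7, 8 and 8 of the 13 genes, where 21.9%, 21.7% and 28.4% of all genes did. The 3 counts share the GFP arrays and are given side by side only. The medians moved with the arrays and the fit. That of CapH2 was -0.154 without GFP replicate 1 and -0.392 without GFP replicate 2, and that of Smc2 was -0.156 without Smc2 replicate 1 and -0.161 with median centring. With the Actb ratio as a term the CapH2, Smc2 and Smc1 medians were -0.128, -0.234 and -0.0535. The Smc1 median was -0.236 with quantile normalization and -0.232 with the mean of all probe sets of a gene. The 95% intervals of the 13 Smc1 changes ran from -1.07 (the lower bound of Herpud1) to 0.79 (the upper bound of Edem1), and 9 of the 13 held 0.

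Of the 7 chaperones and co-chaperones, Hspa5 (BiP), the most widely used marker of the unfolded protein response, read 19644 and 13700 on GFP, 14966 and 14966 on CapH2, 15409 and 17727 on Smc2 and 17330 and 14819 on Smc1. All 6 knockdown arrays lay between the 2 GFP arrays. The changes were -0.13, 0.01 and -0.03 in the CapH2, Smc2 and Smc1 knockdowns, and the Smc1 interval ran from -0.41 to 0.34. The other chaperones had Smc1 changes of -0.34 (Hsp90b1, also called Grp94), -0.40 (Calr, calreticulin), -0.06 (Canx, calnexin) and -0.10 (Sdf2l1), with adjusted p-values of 0.2004, 0.197, 0.816 and 0.767. Calr had 2 other bright probe sets, which gave larger Smc1 changes of -0.69 and -0.71, beside -0.52 and -0.59 in CapH2 and -0.61 and -0.66 in Smc2. Those other probe sets were not tested.

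Dnajb9 and Dnajc3 are co-chaperones that regulate BiP. Dnajb9 (ERdj4) read 2049 and 2279 on GFP, 1198 and 1563 on CapH2, 1309 and 1717 on Smc2 and 1462 and 1828 on Smc1. Dnajc3 (p58IPK) read 2187 and 2002 on GFP, 1275 and 1639 on CapH2, 1188 and 1424 on Smc2 and 1659.7 and 1589 on Smc1. On these probe sets all 6 knockdown arrays lay below both GFP arrays for both genes. The changes of Dnajb9 were -0.65, -0.52 and -0.40 and those of Dnajc3 -0.53, -0.68 and -0.36 in the CapH2, Smc2 and Smc1 knockdowns, with limma adjusted p-values between 0.224 and 0.364. The 4 other probe sets of Dnajc3 disagreed in the Smc1 knockdown, with 0.28, 0.27, -0.48 and -0.50, so the direction of its Smc1 change depends on the probe set.

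Among the disulfide isomerases, which form and reshuffle disulfide bonds in new proteins, Pdia4 read 1726 and 1640.5 on GFP, 1174 and 1208 on CapH2, 1331 and 1143 on Smc2 and 1266 and 1125 on Smc1. All 6 knockdown arrays lay below GFP, with changes of -0.49, -0.44 and -0.49 (limma adjusted p = 0.324, 0.353 and 0.0873). Pdia6 read 6216 and 4655 on GFP, 4199 and 4164 on CapH2, 3371 and 4772 on Smc2 and 3893 and 3876 on Smc1. The Smc2 hairpin 2 array lay above the lower GFP array and the other 5 knockdown arrays lay below it, with changes of -0.36, -0.42 and -0.47 (adjusted p = 0.463, 0.405 and 0.137). Pdia3 had changes of -0.26, -0.11 and -0.02.

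Xbp1, the factor spliced by Ire1, read 4687 and 4813 on GFP, 4816 and 3948 on CapH2, 3842 and 4580.5 on Smc2 and 4361 and 3607 on Smc1. The Smc1 and Smc2 arrays lay below GFP and the CapH2 arrays overlapped it, with changes of -0.12, -0.18 and -0.26 (limma adjusted p = 0.782, 0.674 and 0.332). These probe sets do not report splicing. Herpud1, which helps clear misfolded proteins, read 477 and 361 on GFP, 436 and 411 on CapH2, 357 and 322 on Smc2 and 272 and 269 on Smc1. The Smc1 arrays were the lowest, and the change of -0.59 (SE 0.214) had an adjusted p of 0.0933, with -0.65 on a second probe set. Edem1, which marks misfolded glycoproteins for removal, was the 1 gene of the arm above 0 in the Smc1 knockdown (0.40, adjusted p = 0.148). A second probe set of Edem1, which was not tested, gave 0.61, beside 0.48 in CapH2 and 0.20 in Smc2.

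**Figure D4:**
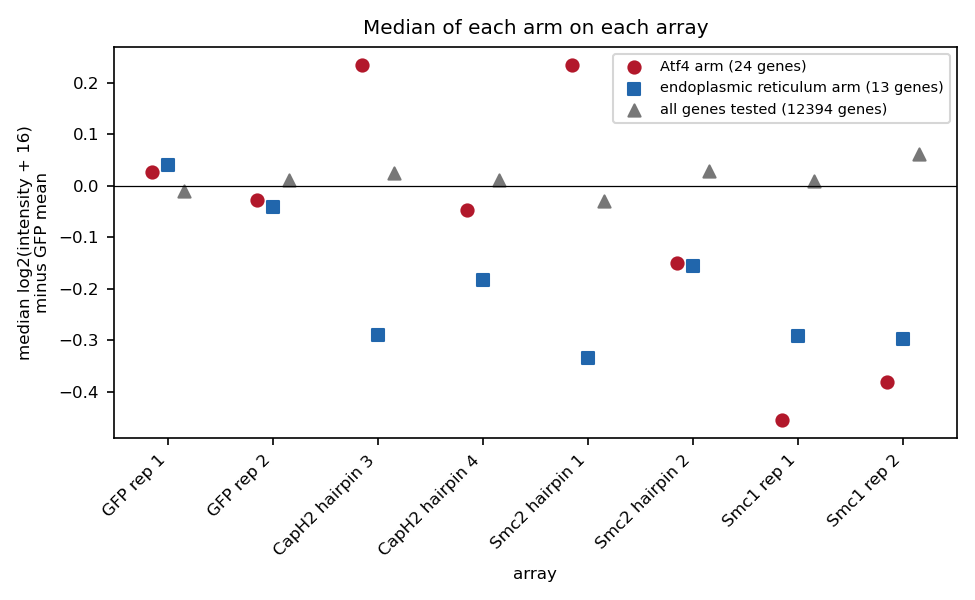
Median over the 24 Atf4 arm genes, the 13 endoplasmic reticulum genes and all 12394 genes of the log2 intensity minus the GFP mean (y axis) on each array (x axis). The Atf4 arm lies at -0.46 and -0.38 on the Smc1 arrays, at 0.23 on CapH2 hairpin 3 and on Smc2 hairpin 1, and at -0.05 and -0.15 on CapH2 hairpin 4 and Smc2 hairpin 2. The endoplasmic reticulum arm lies between -0.33 and -0.16 on all 6 knockdown arrays, and all genes lie near 0.

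The condensin knockdowns asked whether loss of a condensin II subunit, or of the subunit shared by both condensins, moves the same genes. The Atf4 arm had a median change of 0.04 in CapH2 and -0.06 in Smc2, with 10 and 14 of 24 genes below 0. The arrays of a group, each with its own hairpin, differed. They did so in the same order in both groups, although the hairpins had different targets. A difference between hairpins therefore cannot be told apart from one shared by same-numbered arrays, such as a batch. The median against the GFP mean was 0.23 and -0.05 for CapH2 hairpins 3 and 4 and 0.23 and -0.15 for Smc2 hairpins 1 and 2, with 10, 13, 8 and 16 genes below the GFP mean in that order. With CapH2 hairpin 4 and Smc2 hairpin 2 left out together, an alternative chosen after the values were seen, 2 genes were called in CapH2 (Atf5 and Hsp90b1) and 3 in Smc2 (Atf5, Chac1 and Dnajc3). The direct comparison of CapH2 with Smc2, which holds no control array, called 0 of 37 genes by limma, with 0 at an unadjusted p below 0.05, where 0.00807% and 1.03% of all genes passed those limits. The share of 1.03% is smaller than a test at 0.05 would pass if no gene differed. This comparison was thus conservative, and its counts of 0 do not show that the condensin knockdowns were alike. The 95% intervals of all 37 differences held 0 and were widest for Ddit3 (-1.24 to 1.26). In the endoplasmic reticulum arm they lay within -0.61 and 0.78.

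The Smc1 knockdown was then set against the mean of the condensin knockdowns, which tests the difference between them. The difference itself holds no GFP array, but the spread per gene was estimated over all 8 arrays, GFP included. Of the 24 Atf4 arm genes, 6 were called, all lower in the Smc1 knockdown, where 2.23% of all genes were called lower, 5.53% higher and 7.75% in all. They were Nupr1 (-3.19, SE 0.352, limma adjusted p = 0.00290), Psat1 (-1.33, SE 0.190, 0.00613), Mthfd2 (-1.35, SE 0.248, 0.0139), Gpt2 (-0.82, SE 0.169, 0.0214), Chac1 (-1.66, SE 0.394, 0.0332) and Atf4 (-0.78, SE 0.204, 0.0466). For all 6 both Smc1 arrays lay below all 4 condensin arrays, as they did for 14 of the 24 genes and for 14.6% of all genes. The difference was below 0 for 19 of the 24 and for 47.1% of all genes. Ddit3 (-1.23, adjusted p = 0.160), Asns (-0.49, 0.0511), Slc3a2 (-0.49, 0.0509) and Eif4ebp1 (-0.36, 0.0658), which were called against GFP, did not pass this test, nor did Atf3 (0.62, 0.204).

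In the endoplasmic reticulum arm 0 of 13 genes were called by limma in that comparison, with 1 (Herpud1, -0.46) at an unadjusted p below 0.05 (23.6% of all genes). Its median difference was -0.01, beside -0.46 for the Atf4 arm and 0.02 for all genes. The 95% intervals of the 13 differences ran from -0.88 to 0.64. The counts of this comparison depended on single arrays. Without Smc1 replicate 1, 0 genes of both arms were called (Nupr1 then had an adjusted p of 0.0720 and Psat1 of 0.121), and without Smc1 replicate 2 there were 2 (Nupr1 and Psat1). The median difference of the Atf4 arm lay between -0.55 and -0.39 whichever array was left out. In a separate fit with no array left out and the Actb ratio as a term, 11 genes were called, among them the 6. The Atf4 call was lost when any 1 of CapH2 replicate 1, Smc2 replicate 1, the Smc1 arrays or the GFP arrays was left out (adjusted p from 0.0558 to 0.250), the Chac1 call without a GFP array (0.0649 and 0.0651) and the Gpt2 call without CapH2 replicate 2 (0.0579). Fitted on only the groups compared, with no filter, or with no intensity trend, 4 genes were called (Nupr1, Psat1, Mthfd2 and Gpt2), without Atf4 and Chac1. Atf4 lost its call under 13 of the 20 alternatives and Chac1 under 7.

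Other genes of the same pathways were taken from lists by function, whose counts are read against the 14% of all genes called in Smc1 against GFP (4.69% lower and 9.3% higher). Of 15 tested genes for eIF2, its kinases and its phosphatases, 1 was called against GFP in the Smc1 knockdown, the eIF2 beta subunit gene Eif2s2 (-0.50, limma adjusted p = 0.0190), or 6.67% of the list. Of 18 aminoacyl-tRNA synthetases, several of which Atf4 induces, 2 were called lower (11.1%), Nars (-0.82, adjusted p = 0.0137) and Aars (-0.70, 0.0207). Of the 18 changes 17 were below 0, where 47.7% of all genes were, with a median of -0.27. Against the condensin knockdowns 4 of the 18 were called lower (22.2%, beside 2.23% of all genes), Nars, Aars, Lars and Tars. Of 29 other Atf4 targets, 3 fell against GFP, namely Bcat1 (-1.21, 0.00310), Pck2 (-1.01, 0.0127) and Vegfa (-1.69, 0.0115), and 2 rose, Mknk2 (0.80, 0.0147) and Slc38a1 (1.45, 0.0498). These 5 are 17.2% of the list, near the share of all genes. Of 39 other unfolded protein response genes, 2 rose, Creb3 (1.04, 0.0261) and Derl2 (0.87, 0.0275), and 1 fell, Ssr2 (-0.75, 0.0120), with a median of 0.14. These 3 are 7.69% of the list, below the share of all genes. Against the condensin knockdowns 7.75% of all genes were called. Of the 29 other Atf4 targets 1 was higher and 1 lower there (6.9%). Of the 39 other unfolded protein response genes 1 was higher and 1 lower (5.13%), and 0 of the 15 eIF2 genes were called. None of the genes of these 4 lists was called in the CapH2 or the Smc2 knockdown against GFP.

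Promoter sequence was compared between the arms. The genes were chosen by name as known targets and stress response genes, some of them known through these very elements, so the shares are a description and not independent of the choice. The RefSeq promoter table (GRCm38.p6, 250 bases before to 50 after each start) held 37 of the 40 genes, 24 of the Atf4 arm and 13 of the endoplasmic reticulum arm, and lacked Slc7a5, Eif4ebp1 and Cth. The C/EBP-ATF response element TGATGNAAN, on either strand, is the kind of site that Atf4 binds with a C/EBP partner. A gene counted as holding an element when any of its promoters did. The element was held by 8 of the 24 Atf4 arm genes (33.3%), 1 of 13 of the other arm (Herpud1, 7.69%) and 4.5% of all 27025 genes. Of the 11 genes called in any comparison, 4 held it (Nupr1, Atf3, Chac1 and Asns), and Eif4ebp1 could not be searched. Their sites are shown, because these are the called genes with the element, on the strand of the gene with the element in capitals. Those of Nupr1, Atf3 and Chac1 read on the opposite strand.
Nupr1: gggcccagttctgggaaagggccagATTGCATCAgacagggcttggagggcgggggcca
Atf3: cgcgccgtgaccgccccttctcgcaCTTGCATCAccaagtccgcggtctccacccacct
Chac1: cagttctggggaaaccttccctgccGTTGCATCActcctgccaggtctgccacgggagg
Asns: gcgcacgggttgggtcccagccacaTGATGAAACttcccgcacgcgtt
These windows lie at chr7:126625548-126625606 (minus strand), chr1:191183411-191183469 (minus), chr2:119351023-119351081 (plus) and chr6:7693210-7693257 (minus). The element's first base stood 111, 111, 194 and 23 bases before the start site. Nupr1, Chac1 and Asns were among the genes lower in the Smc1 knockdown than in GFP by both arrays, and Atf3 was higher, so the genes with the element did not share a direction. The others with it were Vldlr and Trib3, which were not called, Slc7a11, below the filter, and Pycr1, without a probe set.

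The endoplasmic reticulum stress element, CCAAT followed by CCACG with 9 bases of any kind between them, searched on either strand, is the site at which Atf6 acts with the factor NF-Y. It was held by 6 of 13 genes of the endoplasmic reticulum arm (46.2%), 0 of 24 of the Atf4 arm and 0.137% of all genes. The sites of Hspa5, Pdia6, Dnajc3 and Canx, which read on the strand of the gene, are shown with the 19 bases of the element in capitals, of which the search fixed the first and last 5.
Hspa5: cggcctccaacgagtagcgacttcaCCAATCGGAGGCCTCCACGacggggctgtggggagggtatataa
Pdia6: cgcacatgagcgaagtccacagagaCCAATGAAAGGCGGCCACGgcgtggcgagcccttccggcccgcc
Dnajc3: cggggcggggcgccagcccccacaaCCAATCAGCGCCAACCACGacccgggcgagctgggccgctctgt
Canx: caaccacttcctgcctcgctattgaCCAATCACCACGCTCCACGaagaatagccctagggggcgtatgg
They lie at chr2:34772000-34772068 (plus), chr12:17266466-17266534 (plus), chr14:118937802-118937870 (plus) and chr11:50325775-50325843 (minus). Calr held the element too, on the opposite strand, and Hsp90b1 held it on both strands. Those sites are not shown. In the Smc1 knockdown the 6 genes had changes from -0.47 (Pdia6) to -0.03 (Hspa5), and none was called. The unfolded protein response element TGACGTGG was held by 0 of 24 and 0 of 13 genes (0.714% of all genes). The cAMP response element TGACGTCA was held by 1 of 24 (Ppp1r15a) and 0 of 13 (2.03% of all genes). No 2 different motifs overlapped. A match is a description of the sequence and not of binding, and a promoter without a match lacks only these letters in this window.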

How the data were processed

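The data are 8 Affymetrix mouse arrays with 1 colour, in 4 groups of 2. The authors deposited linear intensity values, summarised by probe set with a method not given in the sources used here. Means trimmed by 2% at each end lay between 488.9 and 490.0 on all arrays, so no further normalization was added. No detection calls were used.

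Of 44903 probe sets, 34771 named exactly 1 symbol, 926 several and 9206 none. Only the first were used, with the brightest per gene standing for it (34554 of 34758 matched the gene table of GRCm38.p6 by identifier, 0 symbols changed). Genes above the array median on at least 2 arrays (12394) were analysed as log2(value + 16) with limma 3.58.1 in R 4.3.3. All 8 arrays were fitted by group means, with prior variances that followed intensity (degrees of freedom 4 residual, 5.97 prior) and Benjamini-Hochberg adjustment over all genes within a comparison, called at 0.05. Tests are two-sided, and the fit was tested on simulated data. With 2 arrays per group, and with 1 array per hairpin for CapH2 and Smc2, p-values mix the spread between hairpins and between replicates. Fold changes on this scale understate those of dim genes.

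The genes, lists, tests and alternatives were chosen with earlier results of these data known. Values on every array are given for Atf4, Ddit3, Xbp1 and Hspa5, for every called gene up to 10 an arm, and for the 5 largest changes of each arm among those not called. Other lists are given by counts and up to 3 called genes a comparison; Tars, Mknk2 and Slc38a1, beyond that number, were named after their values were seen. Promoter sequences are RefSeq's, and motifs were searched on both strands. Alternatives changed the pseudocount, normalization, filter, probe set rule, trend, arrays fitted, replicate block and each array in turn. Those added after the values were seen left out hairpins in pairs or put the Actb ratio in the fit.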

Additional observations from a re-analysis of the deposited data

Results flagged for a closer look

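For 6 genes the change in the Smc1 knockdown differed from that in the condensin knockdowns by limma's test of the difference itself. Nupr1 differed by -3.19 (adjusted p = 0.00290), Psat1 by -1.33 (0.00613), Mthfd2 by -1.35 (0.0139), Gpt2 by -0.82 (0.0214), Chac1 by -1.66 (0.0332) and Atf4 by -0.78 (0.0466), all lower with Smc1. Both Smc1 arrays lay below all 4 condensin arrays for each. None of the 6 was called without Smc1 replicate 1, where the adjusted p-values ran from 0.0720 (Nupr1) to 0.249 (Chac1). No group held 4 arrays, so no search for outlying arrays was made.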

How the results depend on the processing

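No called change of a named gene reversed. The count of called genes in Smc1 against GFP, 8 in the report, was 4 with no filter, 3 with no intensity trend, 13 with only the groups compared in the fit, and 13 with either pair of hairpins left out. Smc1 and GFP share replicate numbers, but the deviations of same-numbered arrays correlated at 0.0667 over 12394 genes with only 2 pairs, so the numbers were not taken to pair them. With the replicate block 15 genes were called, the 8 among them, and 2 of the 15 were in the endoplasmic reticulum arm (Pdia4 and Pdia6), where 0 of 13 are called in the report. With CapH2 hairpin 4 and Smc2 hairpin 2 left out together the Atf4 arm medians were 0.234 in CapH2 and 0.235 in Smc2. With the Actb ratio as a term, fitted on all 8 arrays, 11 genes were called in Smc1 against the condensin knockdowns. In that fit the medians of the Atf4 arm were -0.113 in CapH2 and -0.630 in Smc1, and those of the endoplasmic reticulum arm -0.128 and -0.0535. The latter arm's Smc1 median was -0.236 with quantile normalization and -0.232 with the mean of all probe sets, and its Smc2 median -0.156 with CapH2 hairpin 3 and Smc2 hairpin 1 left out together. The cause of these shifts was not tested. Leaving out 1 array at a time gave 1 to 11 genes in Smc1 against GFP and 0 to 9 against the condensin knockdowns. The Atf4 arm medians then ran from -0.0472 to 0.234 in CapH2, from -0.150 to 0.235 in Smc2 and from -0.162 to 0.192 in CapH2 against Smc2, and those of the endoplasmic reticulum arm from -0.392 to -0.154, from -0.335 to -0.156 and from -0.0821 to 0.151. Where a group kept 1 array, it was assumed to vary like the other groups. Precision is limited by the 2 arrays of each group.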

Other observations

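Stress genes of other compartments were measured on the same arrays. Of 14 tested cytosolic heat shock genes, 2 rose in the Smc1 knockdown against GFP by limma (14.3%, beside 14% of all genes called and 9.3% called higher). The small heat shock protein gene Cryab read 801 and 1241 on GFP, 1594 and 675 on CapH2, 853 and 1329 on Smc2 and 7570.01 and 8846 on Smc1, a change of 3.02 (SE 0.375, adjusted p = 0.00257), and both Smc1 arrays lay far above the other 6. The Hsp70 partner gene Dnaja1 rose by 0.74 (adjusted p = 0.0406). Against the condensin knockdowns Cryab was called (2.94) and Dnaja1 was not (0.11). The median of the 14 genes was 0.41, beside 0.07 and 0.15 in the CapH2 and Smc2 knockdowns, where none was called.

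Of 10 mitochondrial chaperones and proteases, 2 fell in the Smc1 knockdown (20%, beside 4.69% of all genes called lower), the protease subunit gene Afg3l2 (-0.79, limma adjusted p = 0.0323) and the mitochondrial Hsp70 gene Hspa9 (-0.53, 0.0224). Both were also lower than in the condensin knockdowns (-0.71 and -0.51). None of the 10 was called in the CapH2 or Smc2 knockdown.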
